A study of Bos taurus with 6 samples.

Results

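Rab genes encode small GTPases that mark intracellular membranes and direct vesicle traffic. They were taken as every gene whose symbol in the files is RAB, a number and at most one letter with one further digit, which gave 56 of 17325 genes. The RNA came from cow oocytes taken through maturation in culture as far as the second meiotic arrest (MII). Of the 6 libraries, 3 are labelled siMTFP1 (MTFP1 knockdown) and 3 are labelled NC (negative control). The labels give no breed, age, siRNA dose, number of pooled oocytes or treatment beyond that. The comparison asks how the transcriptome differed after knockdown of MTFP1, which encodes an inner mitochondrial membrane protein linked to mitochondrial fission. Levels are the authors' FPKM, fragment counts scaled by transcript length and library total, so levels of different genes can be set side by side per length. Each set of 3 values below runs over libraries 1, 2 and 3 of the named label.

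A Rab protein switches between a GDP-bound form held in the cytosol by a dissociation inhibitor and a GTP-bound form on a membrane, where it recruits motors, tethers and the fusion machinery. Exchange factors turn the switch on, GTPase-activating proteins turn it off, and a lipid tail added by geranylgeranyl transferase anchors it. In mouse oocytes, RAB11A-positive vesicles organise an actin network of the cytoplasm, and RAB27A and RAB3A are linked to cortical granules. Those granules are secretory vesicles beneath the egg surface whose release after sperm entry hardens the zona pellucida and blocks further sperm.

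Several facts of the libraries bear on all that follows. MTFP1 stood at 0.43, 0.58 and 1.15 FPKM in the libraries labelled siMTFP1, against 0.53, 0.55 and 0.05 in those labelled NC, so it was not lower under the knockdown label and the groups are named by their labels only. Nothing in the labels says whether the replicates are separate cultures or animals, and each p therefore reflects spread among these libraries alone, part of which may be technical. The depth of each library is unknown. All 14 oocyte markers lay above the expression filter in these libraries, with GDF9 at 316 ± 33.6 FPKM under siMTFP1 and 288 ± 30.5 under NC (SD, n = 3 each). Their sum was 31956, 31681 and 32460.3 FPKM in the libraries labelled siMTFP1, against 32810.2, 34121 and 34288 in those labelled NC, without overlap. The sum does not speak for the markers as a whole, since 8 were higher and 6 lower under siMTFP1 (median log2 difference 0.01). ZP2, a zona pellucida gene, had 3111, 3053 and 3241 FPKM in the libraries labelled siMTFP1, against 4768, 4427 and 4503 in those labelled NC. It was the 1 member at an unadjusted limma p under 0.05 (limma adjusted p = 0.447). Of all tested genes, 6.53% had such a p. Of 20 cumulus and granulosa markers 13 passed the filter, and their summed FPKM was 186, 1150.2 and 189 in the libraries labelled siMTFP1, against 362, 159 and 298 in those labelled NC. In siMTFP1 2, 955 FPKM of that sum was the protease inhibitor gene TIMP1. Without TIMP1 the sum was 161, 195 and 157 FPKM in the libraries labelled siMTFP1, against 171, 146 and 141 in those labelled NC. The inhibin gene INHA, the 1 member at an unadjusted limma p under 0.05, had 6.53, 15.7 and 1.42 FPKM in the libraries labelled siMTFP1 and 1.98, 0.65 and 1.99 in those labelled NC (log2 difference 1.46, limma adjusted p = 0.750), and LUM and FST were also highest in siMTFP1 2, at 22.9 and 1.51 FPKM. Other members peaked elsewhere, with TNFAIP6 at 17.1 FPKM in NC 3, HSD3B1 at 7.51 in NC 1 and CYP11A1 at 13.4 in siMTFP1 3. STAR and HAS2 ranged from 54.5 to 72.5 and from 33.8 to 49.9 FPKM over the 6 libraries. The defining granulosa genes FSHR, AMH, FOXL2 and CYP19A1 were at no more than 0.24 FPKM in any library. Of 7 matched leukocyte and blood markers 3 passed, led by HBA at 24.1, 25.01 and 57.9 FPKM under siMTFP1 and 45.1, 61.8 and 74.1 under NC, where the groups overlapped (log2 difference -0.83, unadjusted limma p under 0.05, limma adjusted p = 0.750). CD3E and LYZ also passed, at 1.54 to 3.84 and 0.96 to 1.98 FPKM over the 6 libraries, with PTPRC and CD14 at no more than 0.08 FPKM in any library. Only ACTA2 passed among 5 matched stromal markers. In bulk RNA, fewer cells of a type and less RNA per cell cannot be told apart.

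RAB11A, the Rab of recycling endosomes, dominated the family. Its level was 571, 559 and 575 FPKM in the libraries labelled siMTFP1, against 563, 719.8 and 594 in those labelled NC. It was the most abundant Rab in all 6 libraries and the 216th most abundant of the 17325 genes by mean level, and it carried 28.7% of the summed Rab FPKM on average. The groups overlapped, with NC 2 the highest library, and the log2 difference was -0.13 (SE 0.13, limma adjusted p = 0.907). It was -0.024 without NC 2 and -0.20 without NC 1. Its relatives were far lower: RAB25, the epithelial member of the RAB11 group, averaged 21.1 FPKM over the 6 libraries and RAB11B 17.4 FPKM.

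The next ranks went to Rabs of the endoplasmic reticulum and Golgi. RAB2B stood at 168, 136 and 129.6 FPKM in the libraries labelled siMTFP1, against 115, 159 and 139 in those labelled NC. Its paralogue RAB2A stood at 120.1, 112 and 108 FPKM in the libraries labelled siMTFP1, against 95.6, 119 and 109.7 in those labelled NC. Both act in traffic between the endoplasmic reticulum and the Golgi, and RAB2B exceeded RAB2A in each library. RAB30, a Golgi Rab, had 119, 109 and 103 FPKM in the libraries labelled siMTFP1 and 105, 102 and 111 in those labelled NC. RAB6A, which drives retrograde Golgi traffic, had 107, 111 and 94.6 FPKM in the libraries labelled siMTFP1 and 102, 90.98 and 102 in those labelled NC. For each of these genes the groups overlapped, and the log2 differences lay between 0.05 (RAB30, SE 0.12) and 0.09 (RAB6A, SE 0.13). RAB11A, RAB2B, RAB2A, RAB30 and RAB6A, the 5 Rab genes with a mean of at least 100 FPKM, together took 50.9% of the summed Rab FPKM.

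Ranks 6 to 10 spread over other compartments. RAB9A, which returns receptors to the Golgi from late endosomes, had 93.5, 80.8 and 105 FPKM in the libraries labelled siMTFP1 and 89.5, 115 and 104 in those labelled NC. RAB18, a Rab of lipid droplets and the endoplasmic reticulum, had 109, 106 and 86.1 FPKM in the libraries labelled siMTFP1 and 89.3, 96.96 and 87.4 in those labelled NC. The early endosome Rab RAB5C had 81.4, 72.9 and 73.2 FPKM in the libraries labelled siMTFP1 and 72.6, 73.4 and 71.6 in those labelled NC. RAB5C was among the least variable Rabs, with a within-group SD of 0.06 on the log2(FPKM + 1) scale. Its paralogues RAB5B and RAB5A averaged 62.1 and 27.96 FPKM over the 6 libraries, so each member of the RAB5 trio was present. RAB10 and RAB22A, at ranks 9 and 10, are described with their role groups.

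**Figure D1:**
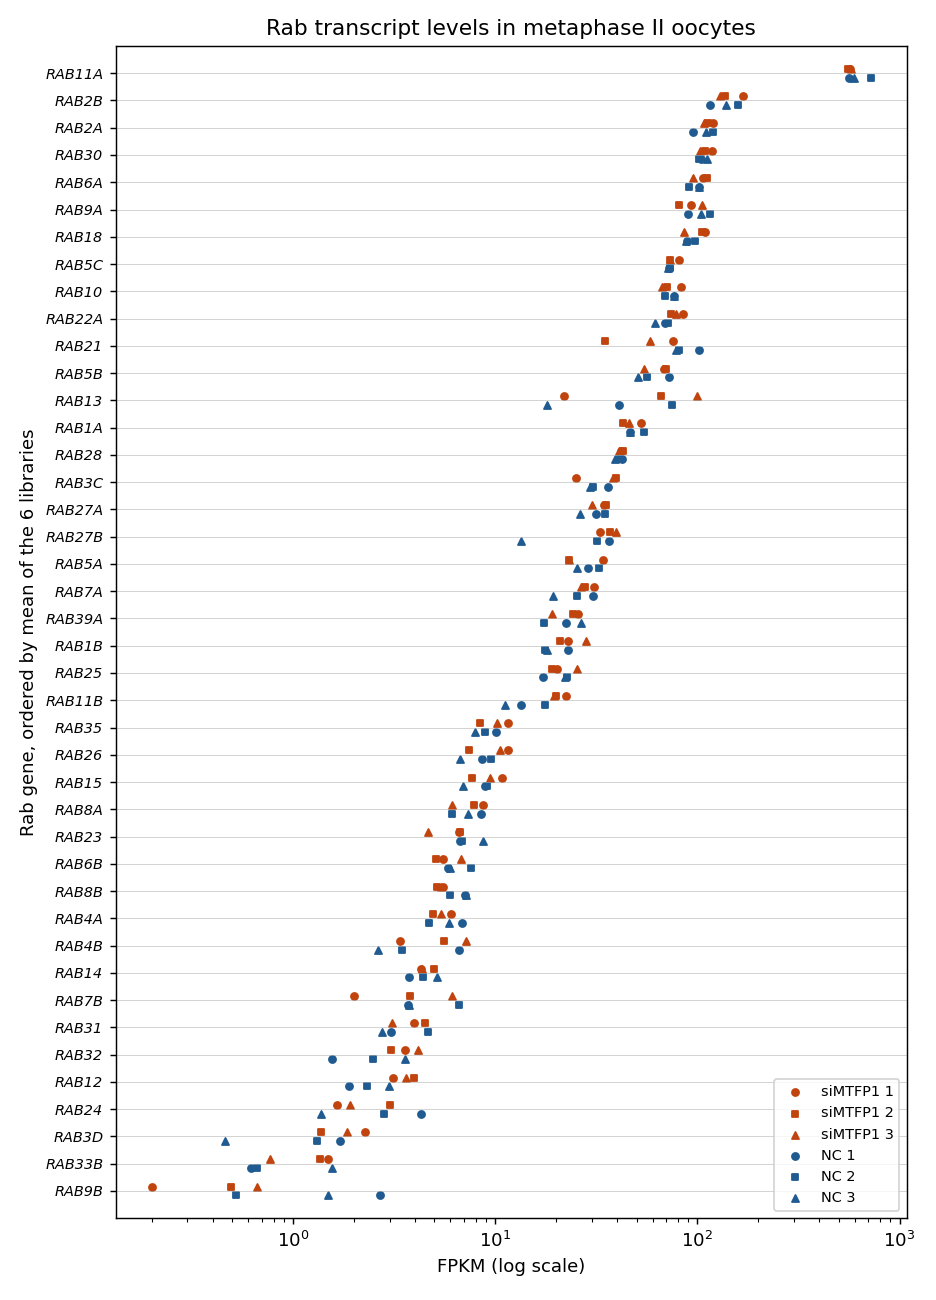
FPKM (log axis) of the 42 Rab genes with a mean of at least 1 FPKM, ordered by the mean of the 6 libraries, with siMTFP1 libraries in red above NC libraries in blue and one symbol per replicate number. RAB11A lies apart at the top, 24 genes have a mean of at least 10 FPKM, and RAB13, RAB21, RAB27B and RAB9B show widely scattered libraries.

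Of the 56 Rab genes, 24 had a mean of at least 10 FPKM, 18 lay from 1 to 10 FPKM and 14 lay below 1 FPKM, the filter used for testing. The 10 highest took 70.9% and the 20 highest 91.5% of the summed Rab FPKM. That sum was 2141, 2029 and 2065 FPKM in the libraries labelled siMTFP1 and 2019.9, 2247 and 1966 FPKM in those labelled NC. It averaged 2078 ± 57.5 FPKM under siMTFP1 and 2078 ± 149 under NC (SD, n = 3 each), a gap smaller than the spread of the libraries. Low members included RAB3A, RAB3B, RAB34, RAB40B and RAB40C at means of 0.718 to 0.945 FPKM, and RAB39B, RAB20 and RAB37 at 0.272 to 0.302. RAB43, RAB17, RAB29, RAB33A, RAB36 and RAB38, the last of these a melanosome Rab, stood at a mean of 0.10 FPKM or less, and 6 of the 56 genes were listed at 0 in at least 1 library.

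By role, recycling endosome Rabs (9 genes) took 32.1% of the summed Rab FPKM, of which RAB11A alone held 28.7%. Rabs of the endoplasmic reticulum, Golgi and lipid droplets (15 matched genes) took 31.7%. Early endosome Rabs (7 genes) took 15.1%, exocytic and secretory Rabs (12 genes) 12.04%, late endosome and lysosome Rabs (9 matched genes) 6.67%, and the other 4 genes (RAB23, RAB28, RAB40B and RAB40C) 2.40%. The exocytic sum was 226, 273 and 300.4 FPKM in the libraries labelled siMTFP1, against 249, 266 and 187 in those labelled NC. The Golgi group sum was 731, 672 and 622 FPKM in the libraries labelled siMTFP1, against 607, 666 and 647 in those labelled NC. In each role group the libraries of the 2 labels overlapped.

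**Figure D2:**
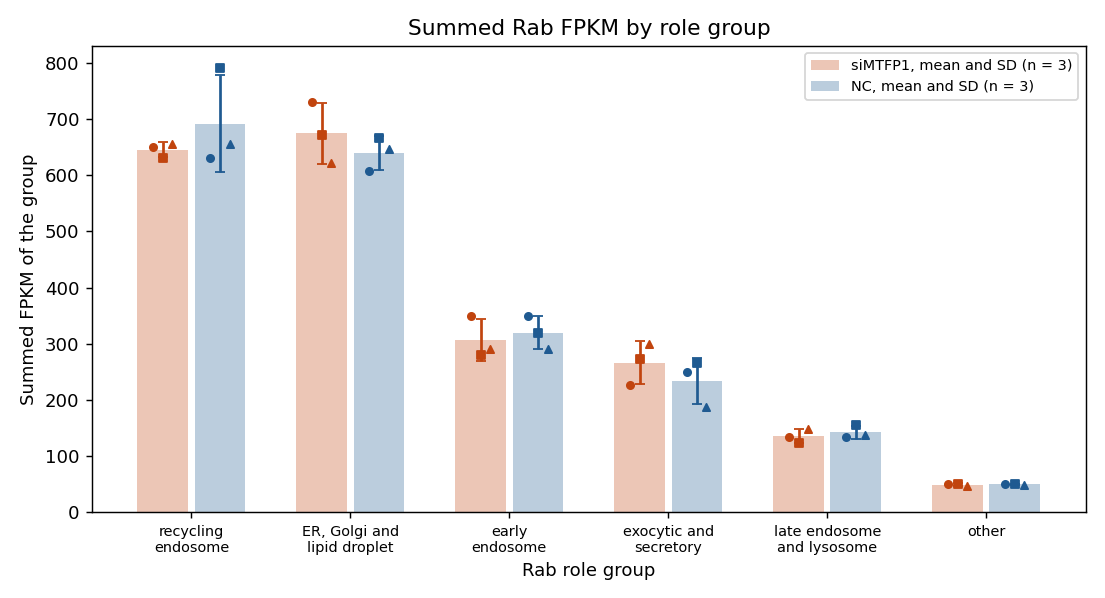
Summed FPKM of each Rab role group, with siMTFP1 (red, left) and NC (blue, right) as bars for the mean of 3 libraries, error bars for the SD and points for the libraries. The recycling and Golgi groups are highest, and in every group the points of the 2 labels overlap.

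Among exocytic Rabs, RAB10, RAB13, RAB3C, RAB27A and RAB27B were the abundant ones. RAB10, which carries vesicles to the plasma membrane, had 82.5, 70.8 and 66.9 FPKM in the libraries labelled siMTFP1 and 76.2, 69.2 and 76.3 in those labelled NC, a log2 difference of -0.01 (SE 0.13). RAB27A, a granule-docking Rab, had 34.3, 35.4 and 30.1 FPKM in the libraries labelled siMTFP1 and 31.4, 34.9 and 26.2 in those labelled NC, with overlapping groups (log2 difference 0.11, limma adjusted p = 0.939). Its paralogue RAB27B had 32.9, 37.1 and 39.7 FPKM in the libraries labelled siMTFP1 and 36.6, 31.7 and 13.4 in those labelled NC. Its log2 difference moved with single NC libraries. It was 0.52 (SE 0.32, limma adjusted p = 0.855) with all libraries, 0.10 without NC 3 and 0.79 without NC 1, where its unadjusted limma p was under 0.05. The RAB27A to RAB27B ratio was 1.04, 0.954 and 0.759 under siMTFP1 and 0.858, 1.10 and 1.95 under NC, and NC 3 was the library in which the paralogues stood farthest apart.

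The RAB3 group, which acts in regulated exocytosis, was carried by RAB3C. RAB3C had 25.01, 39.5 and 38.4 FPKM in the libraries labelled siMTFP1 and 36.3, 30.4 and 29.3 in those labelled NC, with overlapping groups and a log2 difference of 0.08 (SE 0.20). RAB3D had 2.28, 1.38 and 1.85 FPKM in the libraries labelled siMTFP1 and 1.71, 1.31 and 0.46 in those labelled NC, where the groups overlapped (log2 difference 0.43, limma adjusted p = 0.841) and the difference was 0.17 without NC 3 and 0.61 without NC 1, where its unadjusted limma p was under 0.05. RAB3A, the member studied in mouse egg granules, had 0.80, 1.47 and 0.38 FPKM in the libraries labelled siMTFP1 and 1.2, 0.87 and 0.95 in those labelled NC, below the filter, as was RAB3B. Within each library RAB3C stood well above RAB3A, at a ratio of 31.3, 26.9 and 101 under siMTFP1 and 30.2, 34.97 and 30.9 under NC. RAB26, a Rab of secretory granules, had 11.6, 7.43 and 10.5 FPKM in the libraries labelled siMTFP1 and 8.59, 9.54 and 6.71 in those labelled NC. RAB8A, which serves transport to the plasma membrane and the cilium, had 8.72, 7.83 and 6.12 FPKM in the libraries labelled siMTFP1 and 8.48, 6.14 and 7.32 in those labelled NC. RAB37 averaged 0.272 FPKM over the 6 libraries, the lowest of the 12.

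RAB13, known from epithelial junctions and traffic to the cell surface, was the most variable Rab gene of moderate level. Across libraries it had 21.8, 65.9 and 99.3 FPKM in the libraries labelled siMTFP1 and 40.7, 74.6 and 18.03 in those labelled NC, a 5.51-fold range in which each label held both low and high libraries. The within-group SD was 1.05 on the log2(FPKM + 1) scale, above that of 99.04% of the 1662 tested genes whose mean FPKM was within a factor of 2 of it, against a median SD of 0.21 over the 42 tested Rabs and 0.22 over all tested genes. The log2 difference was 0.45 (SE 0.60, limma adjusted p = 0.939) and was -0.071 without NC 3 and -0.0043 without siMTFP1 3. RAB27B, RAB4B, RAB7B and RAB21 also had wide spreads, at percentiles of 96.5, 93.3, 93.6 and 93.1.

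**Figure D3:**
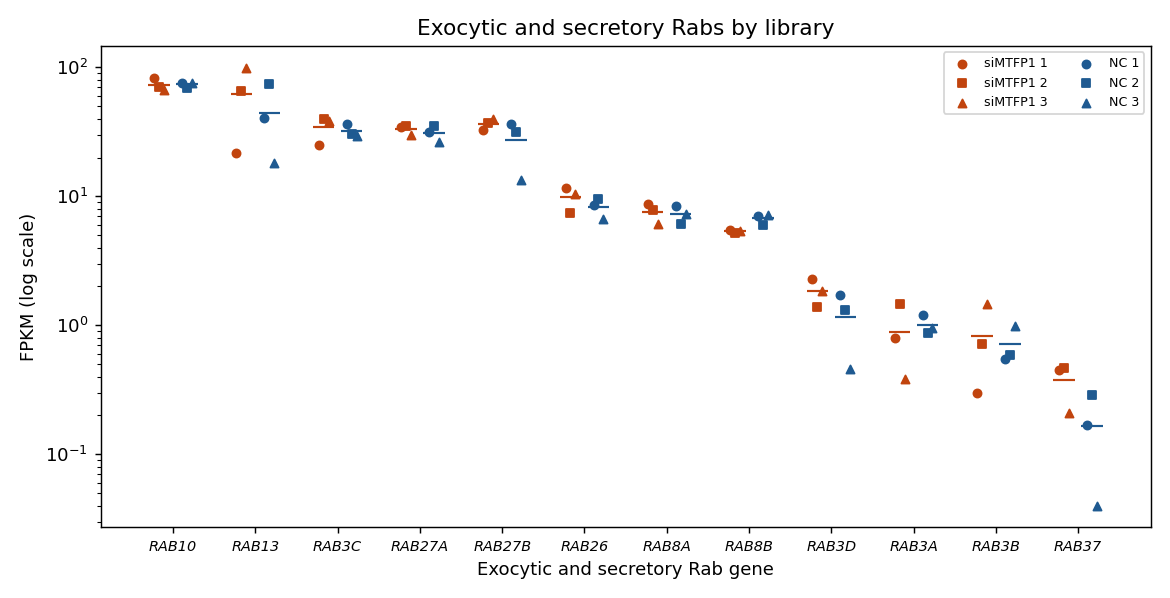
FPKM (log axis) of the 12 exocytic and secretory Rab genes in each library, with siMTFP1 (red, left) and NC (blue, right), one symbol per replicate number and a line for each mean. RAB10, RAB13, RAB3C, RAB27A and RAB27B form the upper group, and RAB3D, RAB3A, RAB3B and RAB37 lie near or below 1 FPKM.

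No Rab gene passed the adjusted threshold between the labels. By limma with Benjamini-Hochberg adjustment over 9730 tested genes, 0 of 42 tested Rabs had an adjusted p under 0.05, and 0% of all tested genes did. At an unadjusted limma p under 0.05 there were 4 Rabs (9.52%), against 6.53% of all tested genes, with 2 higher (3.86% of all tested genes were) and 2 lower (2.66% were). RAB9B, 1 of the 2 lower, reached the filter only through libraries labelled NC. The groups did not overlap for 5 of the 42 (11.9%), against 11.0% of all tested genes, with 3 higher (5.97% of all were) and 2 lower (5.05% were). Both shares were near the background. Among tested Rabs 29 had a higher and 13 a lower mean log2 level under siMTFP1, with a median log2 difference of 0.07, while over all tested genes 5275 were higher and 4455 lower, with a median of 0.02. The median size of the difference was 0.14 for Rabs and 0.14 for all tested genes, and 0 Rabs reached a size of 1. The unadjusted count was 1 without siMTFP1 2, when 3.45% of all genes had such a p, and 2 with a filter at a mean of 5 FPKM. Over all tested genes the split of unadjusted calls was 376 higher and 259 lower, against 323 and 328 with median-ratio scaling and 306 and 358 with quantile normalization.

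**Figure D4:**
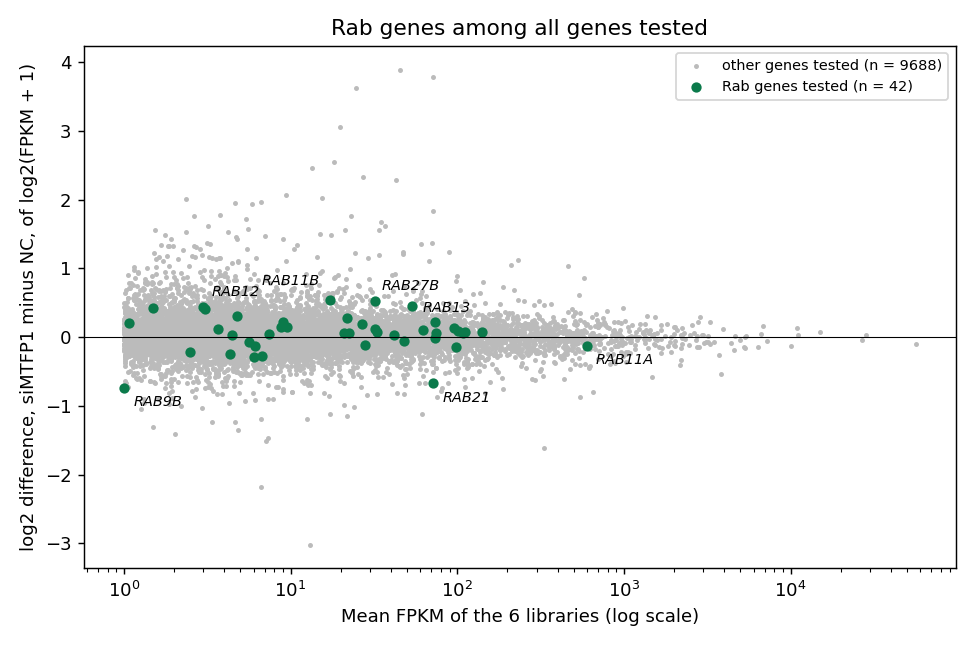
Log2 difference (siMTFP1 minus NC, on the log2(FPKM + 1) scale) against the mean FPKM of the 6 libraries (log axis) for the 42 tested Rab genes (green) and the other tested genes (grey). The Rab genes lie between -0.74 (RAB9B) and 0.55 (RAB11B), inside the grey cloud.

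RAB11B had the lowest p among the Rabs. It measured 22.5, 20.04 and 19.4 FPKM in the libraries labelled siMTFP1 and 13.4, 17.6 and 11.2 in those labelled NC. Every siMTFP1 library lay above every NC library, with a log2 difference of 0.55 (SE 0.18), which did not pass (limma adjusted p = 0.720). It was 0.56 without siMTFP1 2 and 0.40 without NC 3. RAB11A had a difference of the other sign, and the RAB11A to RAB11B ratio within a library was 25.4, 27.9 and 29.6 in the libraries labelled siMTFP1, against 42.05, 40.97 and 53.2 in those labelled NC. This ratio and that of RAB21 to RAB22A were the 2 of 18 paralogue or family ratios whose groups did not overlap. They were singled out after their values were seen and carry no test. RAB21 was wholly lower and RAB22A wholly higher under siMTFP1, so the groups of their ratio could not overlap. RAB11B on its own already did not overlap. The ratios therefore add nothing to the single genes.

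Early endosome Rabs differed in both directions, none past the adjusted threshold. RAB21, which traffics integrins through early endosomes, had 75.6, 35.1 and 58.5 FPKM in the libraries labelled siMTFP1 and 102, 80.95 and 78.1 in those labelled NC. All siMTFP1 libraries lay below all NC libraries, and the log2 difference was -0.67 (SE 0.26, limma adjusted p = 0.750). The lowest value came from siMTFP1 2, and without that library the log2 difference was -0.37, with an unadjusted limma p of 0.0975. Without NC 1 the difference was -0.56, and there too its unadjusted limma p was not under 0.05. The cumulus marker sum was also highest in siMTFP1 2 (1150.2 FPKM, of which TIMP1 gave 955). Without TIMP1 that sum was 195 FPKM there, against 141 to 171 in the other libraries. A link between RAB21 and cumulus RNA was not tested. RAB22A, a Rab of early and recycling endosomes, had 85.02, 74.04 and 77.97 FPKM in the libraries labelled siMTFP1 and 69.4, 71.3 and 62.04 in those labelled NC, again without overlap (log2 difference 0.22, SE 0.13, limma adjusted p = 0.839). The RAB21 to RAB22A ratio was 0.890, 0.474 and 0.750 in the libraries labelled siMTFP1, against 1.47, 1.14 and 1.26 in those labelled NC. Its groups could not overlap, since neither gene overlapped and the 2 differed in opposite directions. RAB31, close kin of RAB22A, averaged 3.85 ± 0.715 FPKM under siMTFP1 and 3.49 ± 1.03 under NC (SD, n = 3 each), with overlap.

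Late endosome and lysosome Rabs were low apart from RAB9A and RAB7A, the Rab that drives fusion with lysosomes, which averaged 28.3 ± 2.13 FPKM under siMTFP1 and 25.01 ± 5.51 under NC (SD, n = 3 each). RAB12, which acts in traffic to lysosomes, had 3.13, 3.94 and 3.63 FPKM in the libraries labelled siMTFP1 and 1.88, 2.33 and 2.98 in those labelled NC, without overlap. The groups differed by 0.44 on the log2 scale (SE 0.18, limma adjusted p = 0.750). Without siMTFP1 2 the RAB12 difference was 0.38 and its unadjusted limma p 0.118. It was 0.32 without NC 1 and 0.56 without NC 3. Among fits with 1 library left out, its unadjusted limma p was under 0.05 only without siMTFP1 1 or without NC 3. RAB9B had 0.20, 0.49 and 0.66 FPKM in the libraries labelled siMTFP1 and 2.68, 0.52 and 1.48 in those labelled NC, overlapping at NC 2 (log2 difference -0.74, SE 0.31, limma adjusted p = 0.750). RAB9B reached the filter only through NC 1 and NC 3, and without NC 1 its log2 difference was -0.43. When 1 library was left out, the unadjusted limma p of RAB9B was under 0.05 only without siMTFP1 3 or without NC 2. With the replicate block it was not under 0.05. RAB32, a Rab of lysosome-related organelles that also associates with mitochondria and is linked to their fission, had 3.58, 3.04 and 4.14 FPKM in the libraries labelled siMTFP1 and 1.55, 2.49 and 3.57 in those labelled NC, where NC 3 lay among the siMTFP1 values (log2 difference 0.41, SE 0.23, limma adjusted p = 0.828). The RAB32 difference was 0.19 without NC 1 and 0.61 without NC 3, where its unadjusted limma p was under 0.05. RAB38 and RAB29, its relatives, were listed at no more than 0.13 FPKM in any library.

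In the lower direction RAB8B and RAB23 followed RAB21 and RAB9B by p. RAB8B had 5.51, 5.17 and 5.37 FPKM in the libraries labelled siMTFP1 and 7.1, 5.99 and 7.2 in those labelled NC, without overlap (log2 difference -0.29, SE 0.15, limma adjusted p = 0.812). RAB23, which restrains Hedgehog signalling, had 6.64, 6.7 and 4.64 FPKM in the libraries labelled siMTFP1 and 6.68, 6.88 and 8.66 in those labelled NC, with overlapping groups and a log2 difference of -0.27 (-0.12 without siMTFP1 3). RAB28, a Rab of cilia, was the steadiest gene of the family, averaging 41.9 ± 1.18 FPKM under siMTFP1 and 41.02 ± 1.80 under NC (SD, n = 3 each). The Golgi to endosome Rab RAB14 averaged 4.54 ± 0.371 FPKM under siMTFP1 and 4.43 ± 0.690 under NC (SD, n = 3 each), and RAB1A and RAB1B, which act at the first step of secretion, averaged 47.97 and 21.8 FPKM over the 6 libraries. RAB4A, RAB4B, RAB15 and RAB35 of the recycling group had means of 4.8 to 9.52 FPKM. The Golgi Rabs RAB39A, RAB6B and RAB33B averaged 22.5, 6.12 and 1.08 FPKM, and RAB24, linked to autophagy, and RAB7B averaged 2.5 and 4.33. Below the filter, RAB17 had 0.20, 0.11 and 0.18 FPKM in the libraries labelled siMTFP1 and 0, 0.07 and 0 in those labelled NC, and RAB36 had 0.03, 0.01 and 0.07 FPKM in the libraries labelled siMTFP1 and was listed at 0 in those labelled NC, levels too near 0 to compare.

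**Figure D5:**
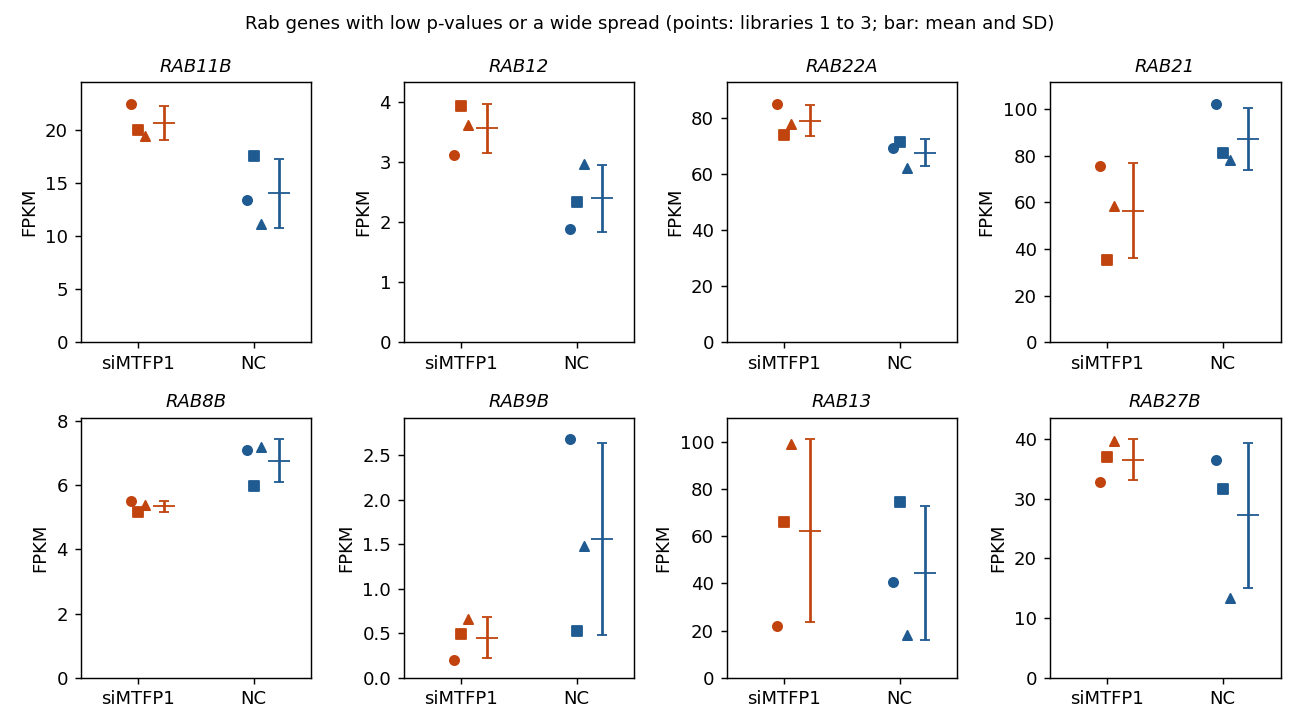
FPKM of 8 Rab genes in each library, with siMTFP1 (red, left) and NC (blue, right), one symbol per replicate number and the mean with its SD (n = 3) beside the points. RAB11B, RAB12 and RAB22A lie wholly higher and RAB21 and RAB8B wholly lower under siMTFP1, while RAB9B, RAB13 and RAB27B overlap.

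The proteins that run the Rab cycle were also measured, and 0 genes of any of these lists passed the adjusted threshold. GDI2, the inhibitor that keeps GDP-bound Rabs soluble, had 229, 168 and 184 FPKM in the libraries labelled siMTFP1 and 178, 169 and 164 in those labelled NC, with overlapping groups. CHM, an escort protein for Rab prenylation, had 2.77, 2.74 and 2.6 FPKM in the libraries labelled siMTFP1 and 3.65, 2.97 and 3.4 in those labelled NC, without overlap (limma adjusted p = 0.869), and ZMPSTE24, a protease of prenylated proteins, gave 0.867. RABAC1, which binds prenylated Rabs, had 7.91, 23.8 and 9.29 FPKM in the libraries labelled siMTFP1 and 6.16, 4.85 and 4.38 in those labelled NC, and was the 1 of 9 tested chaperone and prenylation genes at an unadjusted limma p under 0.05 (log2 difference 1.11, SE 0.35, limma adjusted p = 0.698). Of all tested genes, 3.86% were higher at such a p. RABAC1 was highest in siMTFP1 2, the library with the highest cumulus marker sum (1150.2 FPKM, of which TIMP1 gave 955). Without TIMP1 that sum was 195 FPKM there, against 141 to 171 in the other libraries. A link to cumulus RNA was not tested. Without siMTFP1 2 the log2 difference of RABAC1 was 0.65 (SE 0.21), with an unadjusted limma p of 0.0138. The median log2 difference of the chaperone list was 0.14, against 0.02 over all tested genes.

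Of 19 tested exchange factors 11 were higher and 8 lower, with a median log2 difference of 0.03. Of these 1, RIN2, was higher at an unadjusted limma p under 0.05, as were 3.86% of all tested genes. RIN2, an exchange factor for RAB5, had 1.67, 3.21 and 1.21 FPKM in the libraries labelled siMTFP1 and 1.15, 0.56 and 0.45 in those labelled NC (log2 difference 0.78, limma adjusted p = 0.724), and only its siMTFP1 mean was above 1. RIN2 thus reached the filter only through that group, so its place among genes called higher is not independent of its direction. Without siMTFP1 2, its highest library, the difference was 0.52 and its unadjusted limma p 0.06002. The next by p, MON1A of the RAB7 exchange complex and DENND2C, had limma adjusted p = 0.824 and 0.828. By level, the list was led by CCZ1, the partner of MON1 proteins, at 216 ± 27.7 FPKM under siMTFP1 and 209.6 ± 13.6 under NC, and by RAB3IP, an exchange factor for RAB8, at 136 ± 7.97 FPKM under siMTFP1 and 145 ± 28.4 under NC (SD, n = 3 each). CCZ1 and RAB3IP were picked for their level after values were seen.

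GTPase-activating proteins split evenly, with 12 of 24 tested genes higher and 12 lower and a median log2 difference of -0.01. RABGAP1L had 5.48, 5.4 and 7.43 FPKM in the libraries labelled siMTFP1 and 9.95, 9.39 and 8.04 in those labelled NC, without overlap (log2 difference -0.52, limma adjusted p = 0.720). TBC1D31 had 12.3, 14.3 and 12.4 FPKM in the libraries labelled siMTFP1 and 7.31, 10.6 and 9.56 in those labelled NC (log2 difference 0.47, limma adjusted p = 0.750). TBC1D20, a regulator of RAB1 and RAB18, had 1.41, 1.93 and 1.23 FPKM in the libraries labelled siMTFP1 and 1.27, 0.69 and 0.33 in those labelled NC, with overlap and only its siMTFP1 mean above 1 (log2 difference 0.54, limma adjusted p = 0.754). These were the 3 genes at an unadjusted limma p under 0.05, 2 of them higher (3.86% of all tested genes were) and 1 lower (2.66% were). Without siMTFP1 2 their unadjusted limma p was 0.0621 for RABGAP1L, 0.0859 for TBC1D31 and 0.131 for TBC1D20. TBC1D20 reached the filter only through its siMTFP1 group, so its place in this count is not independent of its direction. TBC1D15, which inactivates RAB7 and is recruited to mitochondria by the fission adaptor FIS1, was the most abundant of the list, at 67.5 ± 7.06 FPKM under siMTFP1 and 65.6 ± 7.91 under NC (SD, n = 3 each). It was chosen after its values were seen.

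Of 29 tested effectors 12 were higher and 17 lower (median log2 difference -0.03), and 0 reached an unadjusted limma p under 0.05. RAB11FIP2, a RAB11 effector and the gene with the lowest p, had 4.51, 3.09 and 4.08 FPKM in the libraries labelled siMTFP1 and 2.66, 3.02 and 3.31 in those labelled NC (limma adjusted p = 0.850). SYTL5, a RAB27 effector, had 1.66, 1.63 and 1.94 FPKM in the libraries labelled siMTFP1 and 2.27, 2.28 and 2.17 in those labelled NC, without overlap (limma adjusted p = 0.855), and INPP5B, a phosphatase that binds Rabs, gave 0.878. Effectors of exocytic Rabs were unequal in level. SYTL2, which binds RAB27 on secretory vesicles, averaged 46.7 ± 0.949 FPKM under siMTFP1 and 51.4 ± 3.68 under NC, and the RAB3 effector RIMS2 averaged 47.5 ± 3.60 FPKM under siMTFP1 and 51.6 ± 8.72 under NC (SD, n = 3 each). SYTL4 and RPH3A, other effectors of this kind, averaged 0.588 and 0.358 FPKM over the 6 libraries. These 4 effectors were named after their values were seen.

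In the fusion machinery, 16 of 28 tested genes were higher and 12 lower (median log2 difference 0.07), with 1 higher and 1 lower at an unadjusted limma p under 0.05, against 3.86% and 2.66% of all tested genes. STXBP3, a Munc18 protein that controls syntaxin 4 in exocytosis, had 44.8, 38.6 and 52.7 FPKM in the libraries labelled siMTFP1 and 71.5, 68.2 and 76.97 in those labelled NC. The siMTFP1 libraries all lay below the NC libraries, at a log2 difference of -0.67 (SE 0.15), which did not pass (limma adjusted p = 0.583), and -0.56 (SE 0.17) without siMTFP1 2, still at an unadjusted limma p under 0.05. STX7, a syntaxin of late endosomes, had 92.3, 122 and 99.6 FPKM in the libraries labelled siMTFP1 and 70.9, 90.5 and 60.8 in those labelled NC, without overlap (log2 difference 0.50, SE 0.18, limma adjusted p = 0.750). Without siMTFP1 2, the highest library, the STX7 difference was 0.39 and its unadjusted limma p 0.0928. VAMP8, the third by p, averaged 19.7 ± 7.34 FPKM under siMTFP1 and 12.4 ± 0.165 under NC. SNAP23, a plasma membrane fusion protein of non-neuronal cells, had 89.3, 85.6 and 88.3 FPKM in the libraries labelled siMTFP1 and 93.2, 92.9 and 105 in those labelled NC, without overlap (log2 difference -0.14, limma adjusted p = 0.892). Its neuronal relative SNAP25 averaged 1.99 ± 0.606 FPKM under siMTFP1 and 2.03 ± 0.390 under NC (SD, n = 3 each). Of the 28 tested genes, 4 lay wholly higher and 2 wholly lower under siMTFP1, against 5.97% and 5.05% of all tested genes. The vesicle protein VAMP3 averaged 71.7 ± 5.26 FPKM under siMTFP1 and 72.5 ± 5.00 under NC, VAMP2 averaged 2.93 ± 1.38 FPKM under siMTFP1 and 2.05 ± 0.793 under NC, and NSF, the ATPase that takes fusion complexes apart, averaged 10.2 ± 1.84 FPKM under siMTFP1 and 11.5 ± 1.65 under NC. Of 7 tested exocyst genes, which tether vesicles at the plasma membrane, 3 were higher and 4 lower (median log2 difference -0.10), 0 reached an unadjusted limma p under 0.05, and EXOC1, EXOC8 and EXOC6B had the lowest p (limma adjusted p = 0.844, 0.901 and 0.930).

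Genes for proteins found in mammalian cortical granules had 5 tested members, of which 4 were higher and 1 lower (median log2 difference 0.30, against 0.02 over all tested genes). ASTL, the ovastacin protease that cleaves ZP2 after granule release in mouse, had 37.01, 35.1 and 53.6 FPKM in the libraries labelled siMTFP1 and 29.5, 41.97 and 32.2 in those labelled NC, with overlap (log2 difference 0.26, SE 0.20, limma adjusted p = 0.886). PLAT, the tissue plasminogen activator gene, had 1.55, 2.7 and 1.7 FPKM in the libraries labelled siMTFP1 and 1.14, 0.62 and 0.28 in those labelled NC, and only its siMTFP1 mean was above 1. HSP90B1, a chaperone of the endoplasmic reticulum, had 144, 146 and 131 FPKM in the libraries labelled siMTFP1 and 116, 122 and 103 in those labelled NC. CALR, another such chaperone, had 14.5, 25.2 and 23.6 FPKM in the libraries labelled siMTFP1 and 15.04, 15.8 and 10.3 in those labelled NC. PLAT, HSP90B1 and CALR were the 3 at an unadjusted limma p under 0.05, all higher, against 3.86% of all tested genes, and their limma adjusted p was 0.638, 0.763 and 0.763. PLAT reached the filter only through its siMTFP1 group, so its place in this count is not independent of its direction. The list of 5 was not tested as a set. PLAT, HSP90B1 and CALR were each highest in siMTFP1 2, as was the cumulus marker sum, where TIMP1 gave 955 of 1150.2 FPKM. A link between them was not tested. Without siMTFP1 2 the log2 differences were 0.68 for PLAT, 0.27 for HSP90B1 and 0.43 for CALR, and PLAT alone kept an unadjusted limma p under 0.05 (0.0267). The remaining tested member, C1QBP, averaged 613 ± 155 FPKM under siMTFP1 and 654 ± 178 under NC (SD, n = 3 each), and LFNG lay below the filter.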

How the data were processed

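RNA was isolated with TRIzol and mRNA libraries were prepared with a BGI dual-mode kit (per the labels' extract protocol). Values of FPKM were deposited by the authors, with 2 decimals, for 17325 genes in each library. HISAT2 2.2.1, Bowtie2 2.3.4.3, RSEM 1.3.1, DESeq2 1.4.5 and the build ARS-UCD1.2 stand in the submitters' processing notes, with no role for any of them. Read sharing between paralogues and use of strand are not stated, so close paralogues are uncertain, as are 5 Rab genes (RAB1A, RAB1B, RAB5A, RAB24 and RAB37) that overlap another measured gene in RefSeq (ARS-UCD2.0), used only for names and neighbours. It held all 56 Rab gene IDs. FPKM keeps no read total, so no counting interval is given.

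Libraries were grouped by title. On log2(FPKM + 1), the 9730 genes with a mean of at least 1 FPKM were tested with limma 3.58.1 (R 4.3.3; eBayes with trend, two-sided, group only), and p was adjusted by Benjamini-Hochberg over all of them (threshold 0.05). This scale understates differences of low genes. Of the Rabs 42 were tested, and RAB9B and RAB33B passed with 1 group mean under 1 FPKM. The script was first tested on simulated data. Named with values in every library were the 10 highest Rabs, exocytic Rabs with a mean of at least 1 FPKM and the 5 of lowest p in each direction. Also named, not all with values in every library, were up to 3 genes of lowest p in each pathway list, and preset defining genes, of which 1 is not reported here. Rabs and lists were chosen with earlier results of these data known. Alternatives varied the pseudocount, filter, scaling, replicate block, eBayes trend and each library left out. Plots used Python 3.11.15 and matplotlib 3.10.9.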

Additional observations from a re-analysis of the deposited data

How the results depend on the processing

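In each alternative run, 0 Rab genes passed the adjusted threshold of limma, and the lowest adjusted p of a named Rab was 0.396 (RAB21 without siMTFP1 1). The number of Rabs at an unadjusted p under 0.05, 4 with all libraries, was 2 with a mean FPKM filter of 5, where fewer genes were tested (RAB12 and RAB9B lie below it), and 1 to 3 when a library was left out. It was 1, RAB11B, without siMTFP1 2, where 3.45% of all genes had such a p. Without NC 3 RAB11B was not among them. The log2 ratio of the summed Rab FPKM ranged from -0.04 to 0.06 over those fits, against 0.00 with all libraries, and the share of the 5 highest from 50.3% to 51.4%. Of 380 log2 differences of the 24 named Rabs under alternatives, 15 had the other sign, in 7 genes. Leaving out 1 library gave ranges of -0.20 to -0.024 for RAB11A, -0.049 to 0.18 for RAB2B, -0.012 to 0.14 for RAB2A, -0.00051 to 0.10 for RAB30, -0.099 to 0.050 for RAB10, -0.071 to 1.06 for RAB13, -0.038 to 0.28 for RAB3C and -0.066 to 0.17 for RAB8A. With quantile normalization RAB8A had -0.011. All genes at an unadjusted p under 0.05 split into 376 higher and 259 lower, which became 323 and 328 with median-ratio scaling and 306 and 358 with quantile normalization. The titles share replicate numbers. Deviations of same-numbered libraries from their group means had correlations of 0.03, -0.16 and 0.07 across genes, and other pairs ranged from -0.26 to 0.23. Such deviations sum to 0 within a group, so they cannot tell whether same-numbered libraries shared a culture or batch. The replicate block gave 3 Rabs at an unadjusted p under 0.05 and 0 past the adjusted threshold. Depth is unknown, so levels near 0 cannot be told from absence.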
